A study of Rattus norvegicus with 9 samples.

Results

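The 3 libraries numbered 3 in the titles, 1 each from control, lithium and VPA cells, were compared with the 6 libraries numbered 1 and 2, out of 9 in all, with the drug group as a block. The comparison asks which transcripts differed between same-numbered sets of libraries whatever the drug. Number 3 was chosen from the expression values of these same libraries, so the differences that follow are a description: a gene is called higher or lower where the adjusted p of the edgeR fit lay under 0.05, used only to sort genes, and no p is given for it. The labels do not say whether a number stands for a day, a culture or a batch, and nothing in them says that the libraries came from separate cultures.

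RN46A is an immortalised line from rat raphe, the brainstem region that holds serotonergic neurons; it carries a temperature-sensitive viral oncogene, so that warming stops division and lets the cells differentiate. In every group the cells had grown at 33 °C with 5% serum and were then moved to 39 °C and 1% serum on plates coated with collagen and fibronectin. After 72 h of differentiation they received 72 h of lithium at 0.5 mM, of sodium valproate (VPA) at 0.5 mM, or of neither (control). Polyadenylated RNA with an RNA integrity number above 7 was sequenced without strand information in 3 libraries a group, so reads of overlapping or antisense genes cannot be told apart. The model is 1 cell line. Tph2, Slc6a4 and Fev, which define serotonergic neurons, were not analysed here; the neuronal hydrolase Uchl1 was present at 79.1, 97.2 and 135 CPM in control, 95.3, 75 and 107 CPM with lithium and 150.0, 165 and 261 CPM with VPA, in the order of libraries 1, 2 and 3. It was the most abundant of 13 pan-neuronal genes tested. In control, Map2 stood at 38.6, 24.8 and 23.9 CPM, but Nefm only at 0.635, 0.868 and 1.16 CPM and L1cam at 0.907, 1.09 and 0.711 CPM.

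Cells make cholesterol through a chain of enzymes that runs through squalene and lanosterol. The genes of this chain share a transcription factor, SREBP-2, which INSIG proteins hold in the endoplasmic reticulum when sterol is plentiful and which is released when sterol or serum lipoprotein is scarce. Fibrillar collagens and small leucine-rich proteoglycans such as decorin and lumican form the interstitial matrix and are typical products of mesenchymal cells.

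Reads assigned to genes numbered 9580591 to 13030300 per library, and the library numbered 3 had the highest total in every group. It nevertheless had the fewest genes with a count in every group: 15857 of 32662 in control 3 against 16221 and 16091 in controls 1 and 2, 16168 in lithium 3 against 16400 and 16384, and 16306 in VPA 3 against 16846 and 16487. The 50 most abundant genes took 14.4 to 19% of the counts. The part of these values in the differences was not tested. Levels are given as CPM, counts scaled to the size of their library, in which 1 count was worth 0.077 to 0.109 CPM.

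Of 12719 genes tested, 1929 (15.2%) were called, 875 higher (6.88%) and 1054 lower (8.29%) in the libraries numbered 3. The differences were mostly moderate, with a median size of 0.615 on the log2 scale among called genes. Among the higher genes 399 differed by 1.5-fold or more and 72 by 2-fold or more, and among the lower genes 675 and 225 did. In 2150 of all genes tested (16.9%) the library numbered 3 lay above both others in all 3 groups, and in 2102 (16.5%) it lay below both. That held for 861 of the higher and 1022 of the lower called genes. The median difference over all genes was 0.0022. Higher calls made up 4.17% of the third of genes with the lowest expression and 9.43% of the third with the highest, against 7.29 and 8.82% for lower calls. Gene names were held for few genes: 1242 tested genes had a symbol, of which 95 (7.65%) were called higher and 53 (4.27%) lower, while 1781 called genes had none. The authors listed the named genes by their p-values in the drug comparisons, so the groups described next hold only part of each pathway, and the median difference of genes with a symbol was 0.10.

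The count fell steeply when some single libraries were left out. Such a fit also has fewer degrees of freedom, and the cause of the falls was not tested. Without control 3 the fit called 2 genes higher and 0 lower, and all 24 of the most different named genes lost their call, while 0 of them changed direction. Without lithium 3 the counts were 95 higher and 163 lower, and without VPA 3 they were 261 and 345. Leaving out control 1 or lithium 1 left 854 and 1013, or 1023 and 1119. Leaving out lithium 2, VPA 1 or VPA 2 left 448 and 583, 502 and 714, or 519 and 654 genes. Set against the libraries numbered 2 alone, number 3 was higher in 779 and lower in 1113 genes, and against those numbered 1 alone in 117 and 198.

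**Figure D1:**
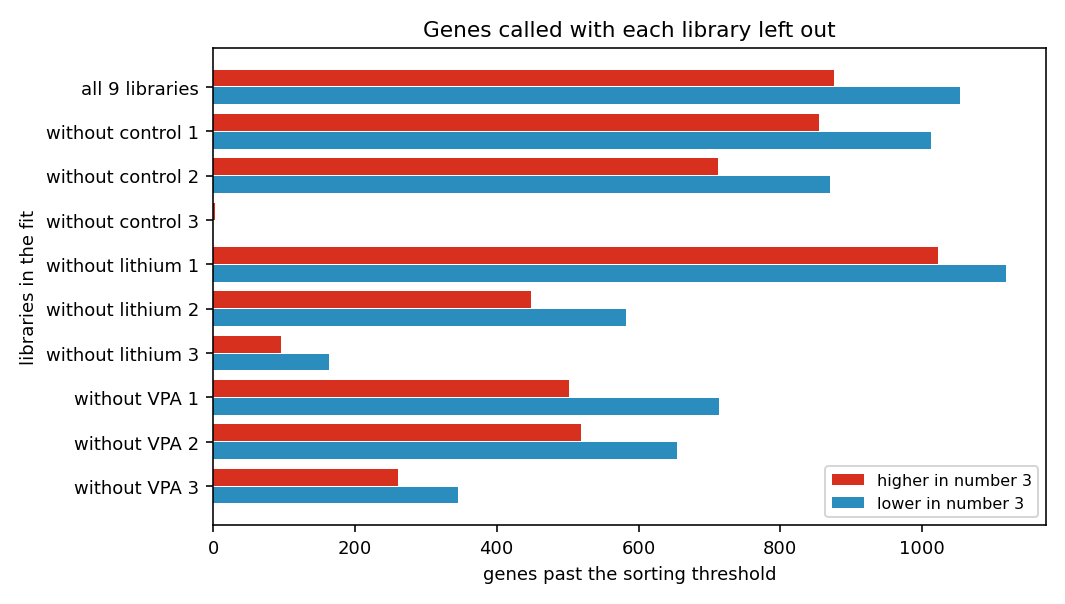
Number of genes called higher (red) and lower (blue) in the libraries numbered 3 (x axis) in the fit of all 9 libraries and with each library left out in turn (y axis). The bars fall from 875 and 1054 to 2 and 0 without control 3, and to 95 and 163 without lithium 3.

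Most measured genes of cholesterol synthesis were higher in the libraries numbered 3. Of the 9 tested, 6 were called higher and 0 lower, with a median log2 difference of 0.72, and 8 of 9 differences were positive. Over all tested genes with a symbol 7.65% were called higher, with a median of 0.10. Among the genes of sterol sensing, uptake and export, 2 of 6 were called higher and 0 lower, with a median of 0.34. These lists were chosen with such differences already known, so the counts are not independent support for them. In the fit without control 3, 0 of the 9 synthesis genes were called, though the log2 differences were of like size there (0.91 ± 0.15 for Cyp51 and 0.78 ± 0.14 for Msmo1). Without lithium 3 the count was 4, without VPA 3 it was 5, and against the libraries numbered 1 alone it was 4.

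Cyp51 (ENSRNOG00000007234), the lanosterol demethylase, stood at 70.2, 77.4 and 166 CPM in control libraries 1, 2 and 3, 69.5, 65.7 and 149.7 CPM in lithium 1, 2 and 3, and 162, 191 and 280.5 CPM in VPA 1, 2 and 3. The library numbered 3 was the highest of each group, and control 3 and lithium 3 lay within the range of VPA 1 and 2 or just below it. Its log2 difference was 1.00 ± 0.12 (SE), a 2.00-fold level. Msmo1 (ENSRNOG00000032297), a sterol methyl oxidase, stood at 146, 119.5 and 263 CPM in control, 132, 125 and 236 CPM with lithium and 379, 462 and 676 CPM with VPA, here and below in the order of libraries 1, 2 and 3, a difference of 0.85 ± 0.12. Number 3 was again the highest in every group, while numbers 1 and 2 lay closer to each other than to it.

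Fdft1, squalene synthase, stood at 108, 96.6 and 186 CPM in control, 108, 120.2 and 176 CPM with lithium and 209, 214 and 364 CPM with VPA, and its difference was 0.76 ± 0.10. Nsdhl, a sterol dehydrogenase, stood at 19.8, 21.6 and 30.6 CPM in control, 21.2, 17.9 and 31.7 CPM with lithium and 33.8, 38.1 and 65.8 CPM with VPA, with a difference of 0.72 ± 0.12. For both genes number 3 lay above both others in all groups. Sc5d, a desaturase late in the chain, differed by 0.65 ± 0.13 in the same way. Of the synthesis genes not called, Idi1, the isopentenyl diphosphate isomerase, stood at 24.1, 31.6 and 28.2 CPM in control, 25.2, 23.9 and 32.6 CPM with lithium and 56.3, 73 and 119 CPM with VPA: number 3 was apart in lithium and VPA, but control 3 lay between controls 1 and 2. Sqle, squalene epoxidase, differed by 0.25 ± 0.11, and Hsd17b7, a sterol ketone reductase, by -0.14 ± 0.21.

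Of the sterol sensors, Insig1 (ENSRNOG00000006859), which retains the SREBP escort protein and is itself an SREBP target, stood at 78.4, 74.2 and 108 CPM in control, 60.1, 53.4 and 99.5 CPM with lithium and 197, 286 and 659.6 CPM with VPA. Number 3 was the highest of each group, by a log2 distance of 0.50 in control, 0.81 with lithium and 1.47 with VPA on the log2(CPM + 0.5) scale. The fitted difference was 0.94 ± 0.17, and the call was lost without control 3, without lithium 3 and without VPA 3. Stard4, a cholesterol carrier of the cytosol, stood at 17, 10.5 and 22.8 CPM in control, 11.2, 15.5 and 21.6 CPM with lithium and 26.5, 28.3 and 46.2 CPM with VPA, a difference of 0.73 ± 0.16. Its 3 libraries numbered 3 were likewise the highest of their groups. Lpin1, a phosphatidate phosphatase, differed by 0.57 ± 0.19, Insig2 by -0.05 ± 0.14 and the lysosomal cholesterol transporter Npc1 by 0.10 ± 0.14, and none of these 3 was called. Abca1, the exporter of cell cholesterol, which sterols induce, stood at 35.1, 11.8 and 13.2 CPM in control, 17, 15.3 and 9.17 CPM with lithium and 7.88, 3.53 and 4.26 CPM with VPA. Its difference of -0.71 ± 0.33 was not called, and control 1 alone lay far above the other controls. Acss2, which makes acetyl-CoA from acetate, was the 1 gene called among 3 of fatty acid synthesis, at 50.3, 41.7 and 56.3 CPM in control, 34.5, 29.5 and 38.8 CPM with lithium and 85.8, 84.2 and 137 CPM with VPA and a difference of 0.43 ± 0.12. That count stands beside 7.65% called higher over all tested genes with a symbol.

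**Figure D2:**
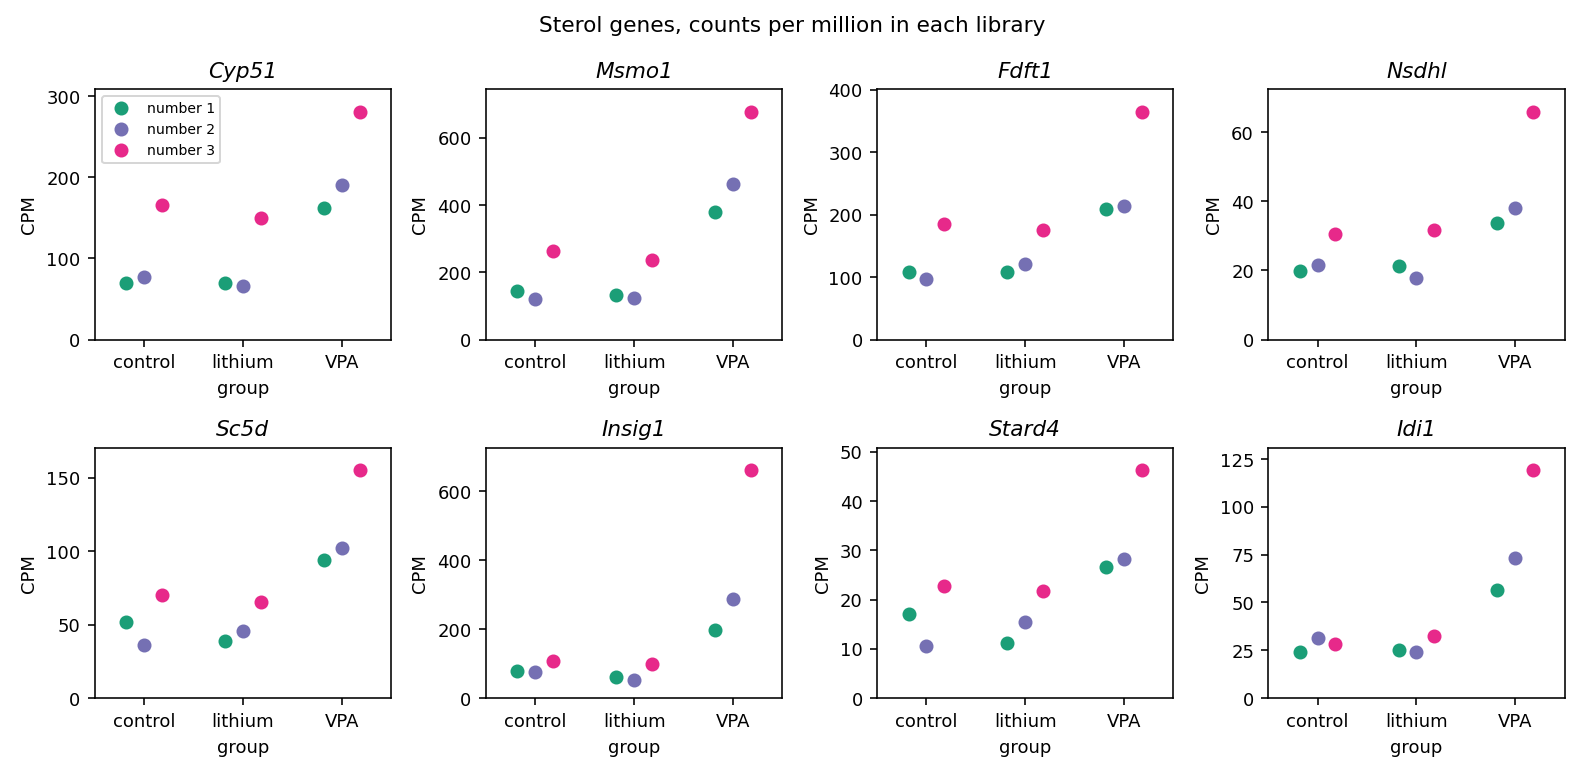
CPM (y axis, linear) of 8 sterol genes in each of the 9 libraries, by drug group (x axis) and by number (colour). The library numbered 3 is the highest of its group in every panel except control Idi1, where it stands at 28.2 CPM between 24.1 and 31.6.

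Promoter sequences of the sterol genes that moved together are shown to set their elements side by side. They are RefSeq sequences of the rat build GRCr8, 250 bases before to 50 after the annotated start, 5′ to 3′ on the gene's strand. The files' own build is not given in the sources used here, so these positions belong to RefSeq alone. Of the 15 sterol genes tested, 11 had an entry. Both strands were searched for TCACNCCAC, a form of the sterol regulatory element that SREBP binds, and for CCAAT, the box bound by the SREBP partner NF-Y; the motifs share no overlap in these windows. Capitals mark CCAAT or its reverse complement.
Insig1: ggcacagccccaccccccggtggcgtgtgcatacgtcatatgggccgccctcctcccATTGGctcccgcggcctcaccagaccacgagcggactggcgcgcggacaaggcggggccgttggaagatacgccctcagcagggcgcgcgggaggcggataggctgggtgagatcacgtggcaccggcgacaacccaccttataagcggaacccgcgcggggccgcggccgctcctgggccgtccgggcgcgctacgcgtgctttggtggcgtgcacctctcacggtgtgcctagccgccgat
Msmo1: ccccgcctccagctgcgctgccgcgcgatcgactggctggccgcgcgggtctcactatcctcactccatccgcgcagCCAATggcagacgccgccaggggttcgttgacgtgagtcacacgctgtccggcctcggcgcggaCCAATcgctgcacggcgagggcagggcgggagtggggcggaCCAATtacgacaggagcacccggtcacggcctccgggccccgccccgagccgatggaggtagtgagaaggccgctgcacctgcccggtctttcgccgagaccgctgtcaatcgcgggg
Nsdhl: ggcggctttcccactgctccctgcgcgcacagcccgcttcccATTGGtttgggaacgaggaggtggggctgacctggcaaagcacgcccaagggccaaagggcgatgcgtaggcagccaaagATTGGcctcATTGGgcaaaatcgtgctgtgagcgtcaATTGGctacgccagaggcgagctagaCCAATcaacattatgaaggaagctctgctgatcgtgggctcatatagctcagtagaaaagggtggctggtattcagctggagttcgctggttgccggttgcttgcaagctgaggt
Cyp51: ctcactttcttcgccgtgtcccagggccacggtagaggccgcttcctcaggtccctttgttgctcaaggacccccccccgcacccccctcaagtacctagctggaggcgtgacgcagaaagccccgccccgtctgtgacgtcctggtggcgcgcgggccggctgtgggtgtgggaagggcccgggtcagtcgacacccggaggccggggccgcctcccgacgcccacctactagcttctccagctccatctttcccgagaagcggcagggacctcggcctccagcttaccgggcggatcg
They lie at chr4:8057720-8058019, minus strand (Insig1), chr16:29746863-29747162, plus strand (Msmo1), chrX:155817110-155817409, plus strand (Nsdhl) and chr4:30991443-30991742, plus strand (Cyp51). Nsdhl held 5 CCAAT boxes, which began 208, 128, 119, 91 and 65 bases before the start. Msmo1 held 3, at 173, 109 and 68 bases, Insig1 held 1, at 193 bases, and Cyp51 held 0. Of the 5 called genes with an entry, 4 held a CCAAT box, as did 37.5% of all 33469 promoters of this length. Among the sterol genes with an entry that were not called, Hsd17b7, Idi1, Insig2 and Lpin1 also held the box, and Abca1 and Npc1 did not. The box thus did not set the called sterol genes apart from the others. The sterol element in this spelling was in 0 of the 5 called genes and in 1.12% of all promoters. That says only that these letters are not in this window.

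Few matrix genes were called. Of 19 genes of the fibrillar matrix, 2 were called lower and 0 higher, beside 8.29% called lower over all genes and 4.27% over genes with a symbol. The median log2 difference was -0.24, with 14 of 19 negative. The calls depended on the reference: against the libraries numbered 2 alone 4 members were called higher and 2 lower, and against those numbered 1 alone 0 were higher and 5 lower. Without control 3, 0 members were called in either direction, with log2 differences of -1.05 ± 0.20 for Col5a2 and -2.74 ± 0.79 for Dcn, and without control 2, 5 were called lower. Without control 1, 3 were called higher and 2 lower.

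Col5a2 (ENSRNOG00000003736), a chain of the collagen that sets fibril width, stood at 587, 735 and 361 CPM in control, 488, 564 and 320.5 CPM with lithium and 318, 319 and 121 CPM with VPA. Number 3 was the lowest of each group, with a log2 difference of -0.98 ± 0.15, or 0.506 of the level of numbers 1 and 2. Dcn (ENSRNOG00000004554), decorin, stood at 21.4, 12.4 and 1.42 CPM in control, 6.63, 1.84 and 0.693 CPM with lithium and 0.312, 0.428 and 0 CPM with VPA, and its fitted difference was -3.22 ± 0.53. The groups are uneven here: control 3 held 16 counts against 236 and 114, and VPA 3 held 0 against 4 and 4, so the difference rests on control and lithium. Lum, lumican, stood at 4.9, 1.41 and 0.533 CPM in control, 1.29, 0.263 and 0 CPM with lithium and 0, 0 and 0 CPM with VPA. It went the same way in control and lithium and was listed at 0 in all VPA libraries, and it was not called. Prelp, a proteoglycan of the same family, differed by -1.47 ± 0.53 and was not called.

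Col3a1, the collagen of pliable tissues, stood at 285, 123 and 124 CPM in control, 115, 65.4 and 70 CPM with lithium and 25.1, 27 and 15.8 CPM with VPA. Control 3 and lithium 3 lay beside number 2, and number 1 stood above both, while with VPA it was number 3 that lay apart, below both others. The difference of -0.59 ± 0.25 was not called. Fn1, fibronectin, showed the same position of number 1 in control at 7382, 3171 and 4687 CPM in control, 3449, 3049 and 2847 CPM with lithium and 1910, 1353 and 1185 CPM with VPA, with a difference of -0.27 ± 0.24. Col1a1, the main collagen chain of bone and skin, went the other way at 186, 77.7 and 228 CPM in control, 80.8, 63.4 and 114 CPM with lithium and 53.7, 44.7 and 52 CPM with VPA. It stood highest in control 3 and lithium 3, but VPA 3 lay between VPA 1 and 2. Tnc, tenascin C, stood at 184, 94.1 and 273 CPM in control, 101, 130.4 and 213 CPM with lithium and 64.7, 58.3 and 65 CPM with VPA, and Sparc, a collagen-binding glycoprotein, at 931, 660.4 and 1060 CPM in control, 688, 527 and 772 CPM with lithium and 375, 442 and 654 CPM with VPA. Number 3 was the highest of each group in both, by little for Tnc with VPA, and neither was called, with differences of 0.67 ± 0.21 and 0.48 ± 0.15.

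**Figure D3:**
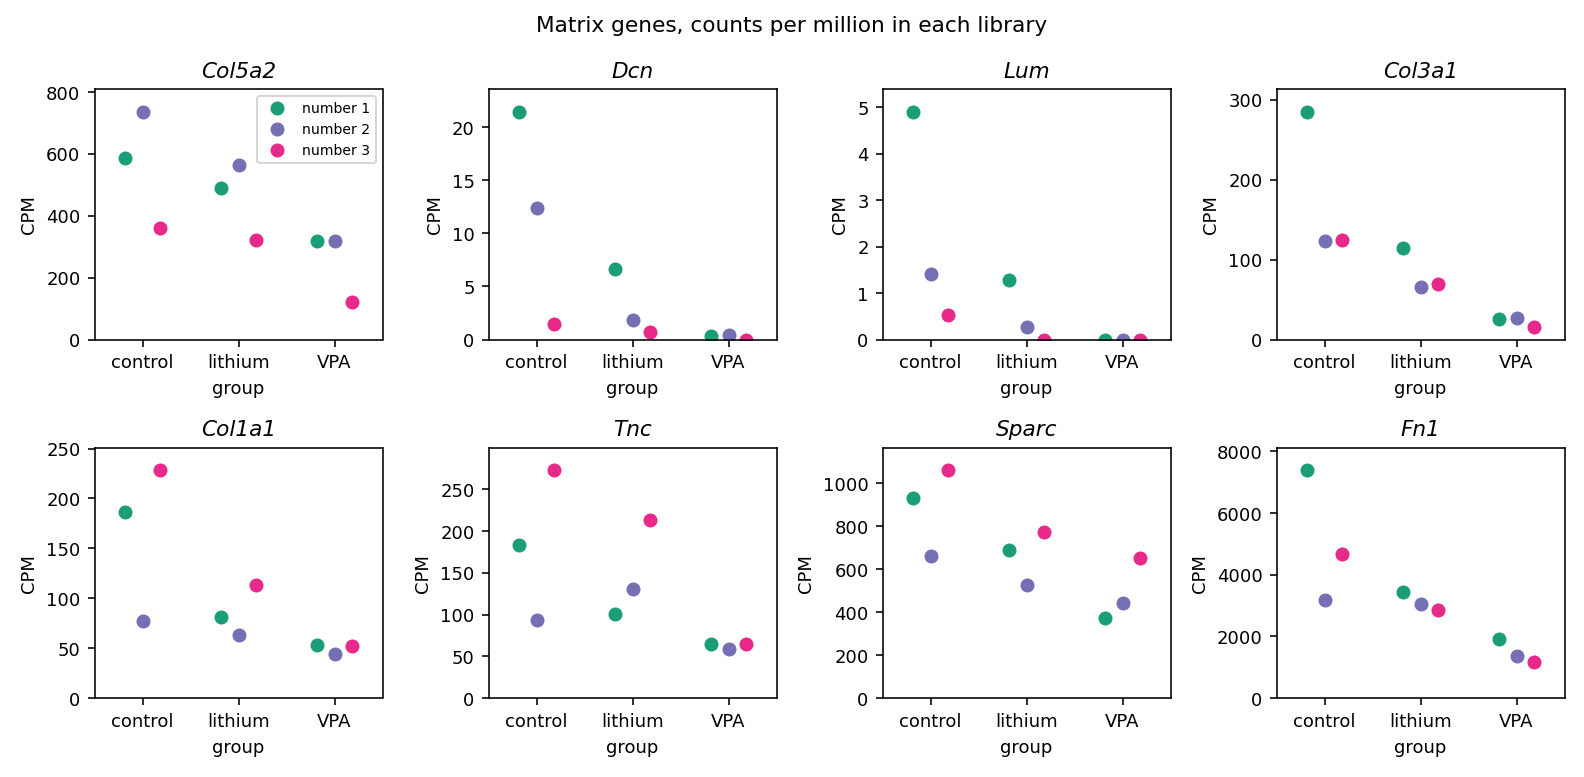
CPM (y axis, linear) of 8 matrix genes in each of the 9 libraries, by drug group (x axis) and by number (colour). Col5a2 and Dcn are lowest in number 3 of every group, Tnc and Sparc are highest there, and in Col3a1 and Fn1 it is control 1 that stands apart.

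Other matrix-related genes gave single calls. Nid2, a linker of the basement membrane, was called higher at 97.5, 77.4 and 143 CPM in control, 78.4, 100.4 and 149 CPM with lithium and 199, 238 and 245 CPM with VPA, with a difference of 0.54 ± 0.15, and was 1 of 2 tested. Of 5 contractile genes, Tpm1, a tropomyosin, and Myl9, a myosin light chain, were called higher, by 0.33 ± 0.10 and 0.64 ± 0.17. Over all tested genes with a symbol 7.65% were called higher, and these short lists were not tested against that share.

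Neuronal genes gave a few calls, mostly higher in the libraries numbered 3. Of 12 genes of the synaptic vesicle and its release, 2 were called higher and 0 lower, with a median of 0.30 and 10 positive differences, and of 13 pan-neuronal genes 3 were called higher and 1 lower, with a median of 0.29. Over all tested genes with a symbol 7.65% were called higher and 4.27% lower, with a median of 0.10, and neither list was tested against those shares. Syn1 (ENSRNOG00000010365), synapsin, which tethers synaptic vesicles, stood at 5.72, 3.47 and 13.3 CPM in control, 3.45, 4.83 and 11.5 CPM with lithium and 15.8, 16.4 and 32.5 CPM with VPA. Number 3 lay far above both others in every group, and the log2 difference was 1.32 ± 0.18. Syn2, its paralog, stood at 0.817, 0.434 and 0.889 CPM in control, 0.345, 0.614 and 1.08 CPM with lithium and 3.75, 4.5 and 10.4 CPM with VPA, with a difference of 1.11 ± 0.27. In control its libraries 1 and 3 differed by 1 count (9 and 10), so the difference rests on lithium and VPA.

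Map1a, a microtubule-associated protein of dendrites, was well expressed, at 132, 60.6 and 213 CPM in control, 72.5, 87.7 and 163 CPM with lithium and 118, 113 and 206 CPM with VPA. Number 3 was the highest of each group, with a difference of 1.00 ± 0.19. Nefh, the heavy neurofilament chain, stood at 10.3, 8.79 and 15.3 CPM in control, 10.4, 7.63 and 14.2 CPM with lithium and 20.9, 20.9 and 39.8 CPM with VPA, a difference of 0.76 ± 0.14, and Uchl1, given above, differed by 0.56 ± 0.13. In each of these genes the library numbered 3 lay above both others of its group. Nrgn, a calmodulin-binding postsynaptic protein, was called at 1.15 ± 0.35 on 0 to 4 counts in each control and lithium library, so its difference rests on VPA. Nsg1, an endosomal protein of neurons, was lower at 28.2, 24.9 and 19.9 CPM in control, 23.3, 16.1 and 13.8 CPM with lithium and 12.3, 9.43 and 6.34 CPM with VPA, with a difference of -0.56 ± 0.17. Snap25, a SNARE protein of vesicle fusion, was not called; its difference was -1.01 ± 0.31, and VPA 3 stood at 2.57 CPM against 5.46 and 6.11. Neuronal genes thus differed in sign among themselves. Without control 3, 0 members of either list were called, and without lithium 3 or VPA 3, 1 synaptic and 0 pan-neuronal members were.

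Further neuronal and membrane genes stood among the 12 largest higher differences with a symbol. Slc8a2 and Slc8a1, sodium-calcium exchangers of the plasma membrane, differed by 1.32 ± 0.27 and 0.99 ± 0.29. Slc8a2 stood at 2.18, 0.651 and 5.95 CPM in control, 2.07, 1.67 and 4.85 CPM with lithium and 17.9, 17.1 and 31.3 CPM with VPA, with number 3 the highest of each group. Hpcal4, a neuronal calcium sensor, stood at 1.54, 0.977 and 3.56 CPM in control, 0.689, 1.05 and 3.08 CPM with lithium and 11.9, 10.1 and 22.2 CPM with VPA, a difference of 1.34 ± 0.22. Tubb4a, a brain tubulin whose reads near-identical tubulin genes can share, differed by 1.40 ± 0.27. The largest was Dnai2, a dynein chain of motile cilia, at 0.817, 1.19 and 2.93 CPM in control, 0.603, 0.614 and 3.16 CPM with lithium and 4.06, 4.39 and 8.35 CPM with VPA and a difference of 1.52 ± 0.26, followed by Klk6, a secreted serine protease, at 1.42 ± 0.26. Both were low in control and lithium, where Klk6 held 4 to 14 counts a library. Fam171a1 and Fbxl16 differed by 1.05 ± 0.31 and 0.99 ± 0.27. Tubb4a and Fbxl16 were low in control and lithium too, at 2 to 19 and 4 to 19 counts a library. Vgf, a neuropeptide precursor, stood at 1.81, 1.52 and 5.24 CPM in control, 2.93, 3.16 and 5.01 CPM with lithium and 38.7, 48.7 and 75.3 CPM with VPA, a difference of 0.98 ± 0.18, and Kcnh2, a potassium channel, differed by 0.63 ± 0.18.

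The largest lower differences with a symbol were Dcn, given above, and Wisp2 (ENSRNOG00000010666), a secreted protein of the CCN family, at 7.71, 5.97 and 0.622 CPM in control, 3.62, 1.49 and 0.154 CPM with lithium and 0.39, 0.75 and 0.241 CPM with VPA. Number 3 was the lowest of each group, at 7, 2 and 3 counts in control, lithium and VPA, and the fitted difference was -3.16 ± 0.51. Sfrp4, a secreted Wnt antagonist, stood at 10.6, 6.51 and 4.18 CPM in control, 7.24, 3.25 and 2.47 CPM with lithium and 2.73, 1.5 and 0.402 CPM with VPA, with a difference of -1.29 ± 0.35, and was the 1 of 8 Wnt pathway genes called. Over all tested genes with a symbol 4.27% were called lower, and 1 call among 8 does not set that list apart. The differences of the 8 were positive in 4 and negative in 4, with a median of 0.20. Tnnt3, a troponin of fast muscle, differed by -1.95 ± 0.32 on 2 to 34 counts a library. Rad21l1, a meiotic cohesin subunit, stood at 4.99, 6.3 and 1.96 CPM in control, 4.14, 7.72 and 2.08 CPM with lithium and 12.4, 16.4 and 4.42 CPM with VPA, a difference of -1.59 ± 0.24. It was lowest in number 3 of each group by a similar factor.

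Spry1, a feedback inhibitor of growth factor signalling, stood at 18.5, 16.2 and 9.24 CPM in control, 13.6, 14.9 and 4.7 CPM with lithium and 7.18, 6.86 and 4.98 CPM with VPA, with a difference of -0.99 ± 0.20. Mnda, an interferon-inducible nuclear protein, stood at 75.1, 73.7 and 32 CPM in control, 64.4, 47.4 and 38.1 CPM with lithium and 30.4, 32.5 and 12.4 CPM with VPA, a difference of -1.01 ± 0.17. In both, number 3 lay below both others of its group. Mpa2l, of the guanylate-binding proteins, and Akr1c19, of the aldo-keto reductases, have close copies in the genome whose reads the counting could split, which leaves their differences of -0.99 ± 0.22 and -1.11 ± 0.21 uncertain. Mcoln3, an endosomal cation channel, differed by -1.08 ± 0.29 and Dhrs4, a retinal reductase, by -0.99 ± 0.23. Carmil3, a regulator of actin capping, stood in number 3 at 0.498 of its level in numbers 1 and 2. Among genes without a name, ENSRNOG00000013552 and ENSRNOG00000033741 had the largest higher differences, of 2.05 ± 0.27 and 1.65 ± 0.17, and ENSRNOG00000059382 and ENSRNOG00000054809 the largest lower ones, of -3.50 ± 0.74 and -2.68 ± 0.47.

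Of 18 interferon response genes, Cxcl10, a chemokine, was called higher, at 118, 98.9 and 171 CPM in control, 89.9, 63.7 and 99.4 CPM with lithium and 41.4, 63.6 and 87.5 CPM with VPA, and 0 were called lower. No call was made among the 6 tested chaperones and unfolded protein genes, the 6 cell cycle genes, the 5 genes of hypoxia and glycolysis or the 5 redox genes. Over all tested genes with a symbol 7.65% were called higher and 4.27% lower. Beside those shares, neither 1 call among 18 genes nor 0 among 5 or 6 sets a list apart. Calr, calreticulin of the endoplasmic reticulum, stood at 914, 899 and 958 CPM in control, 967, 841 and 857 CPM with lithium and 1434, 3370 and 1495 CPM with VPA: VPA 2 was the library apart, and number 3 was not.

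A few markers of other cell types were called, beside 7.65% called higher and 4.27% lower over all tested genes with a symbol. The marker lists were not tested against those shares. Of 4 macrophage markers tested, Cd68, a lysosomal glycoprotein, and Cd14, the endotoxin co-receptor, were called higher, and the list's summed level was 42.9, 38.1 and 60.9 CPM in control, 47, 37.4 and 58.3 CPM with lithium, and 34.4, 49.1 and 57.8 CPM with VPA. Number 3 held the highest macrophage sum in every group. Lcp1 and Lsp1, the rest of that list, were not called, and Lsp1 differed by -0.11 ± 0.25. Ptprc, Itgam, Csf1r and Adgre1, which define macrophages, were not analysed here. Of 8 fibroblast markers 1 (Dcn) was called lower, and the summed level was 6050, 7920 and 6940 CPM in control, 6590, 5060 and 6120 CPM with lithium and 2600, 4200 and 2830 CPM with VPA, with number 3 between the others in every group. That sum was mostly Vim, at 3769, 4279 and 5128 CPM in control, and S100a4, at 1780, 3426 and 1453 CPM there. It therefore says little about the less abundant members such as Dcn, Lum, Col1a1 and Col3a1. The 4 epithelial and 4 glial markers gave 0 calls; their sums ranged from 41 to 152 CPM and from 11.1 to 65.1 CPM, and the epithelial sum was highest in control 3 and lithium 3 but in VPA 2. In bulk RNA, more cells of a type and more RNA per cell cannot be told apart. The part of these markers in the differences was not tested.

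How far the drug groups shared the difference was examined over the 10288 genes that averaged at least 5 CPM. The difference of number 3 from the mean of numbers 1 and 2 correlated at 0.804 between control and lithium, at 0.526 between control and VPA and at 0.537 between lithium and VPA (Pearson's r across genes, which are not independent replicates). The difference of number 2 from number 1, by contrast, correlated at -0.627 between control and lithium, 0.57 between control and VPA and -0.346 between lithium and VPA. Lithium 2 deviated from its group mean as control 1 did (0.65), and lithium 1 as control 2 did (0.684). By this measure the numbers 1 and 2 did not mark like libraries in all groups. The correlations for number 3 restate the values on which it was chosen and are a description only. The spread of the number 3 difference (SD across genes) was 0.477, 0.36 and 0.435 in control, lithium and VPA, and that of number 2 minus number 1 was 0.461, 0.446 and 0.385. The values were of the same order, but they are unlike measures. The first sets 1 library against the mean of 2, which varies less than 1 library, and the second sets 1 library against 1.

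**Figure D4:**
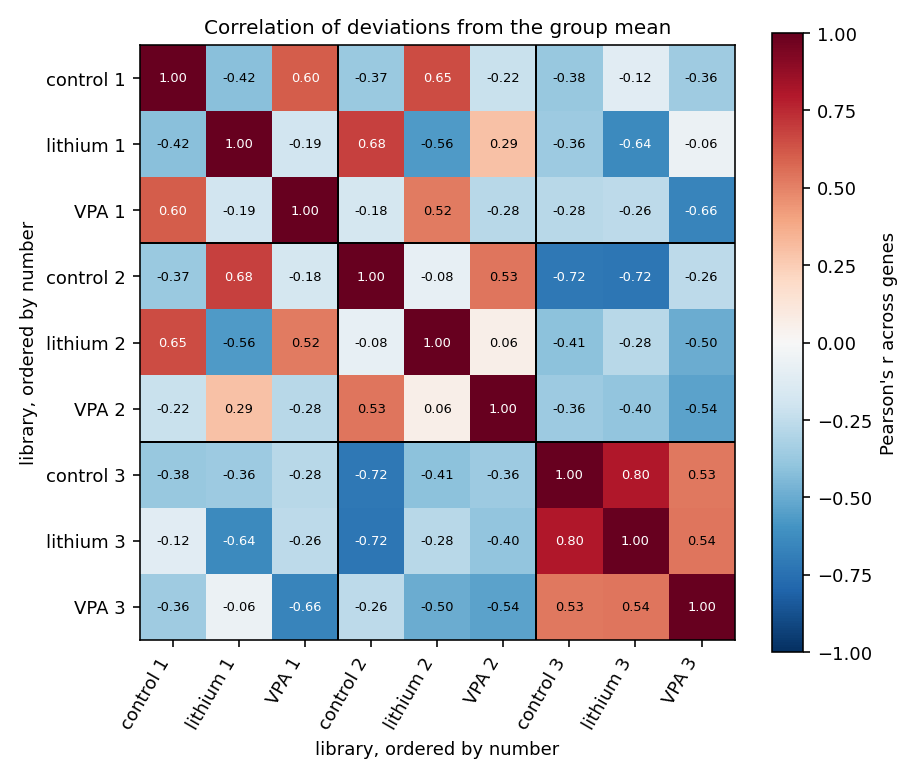
Pearson's r across 10288 genes between the deviations of any 2 libraries from their group means (log2 CPM), with libraries ordered by number on both axes. The block of number 3 is positive throughout, from 0.526 to 0.804, whereas lithium 1 pairs with control 2 at 0.684 and lithium 2 with control 1 at 0.65; deviations within 1 group sum to 0 and so correlate negatively on average.

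**Figure D5:**
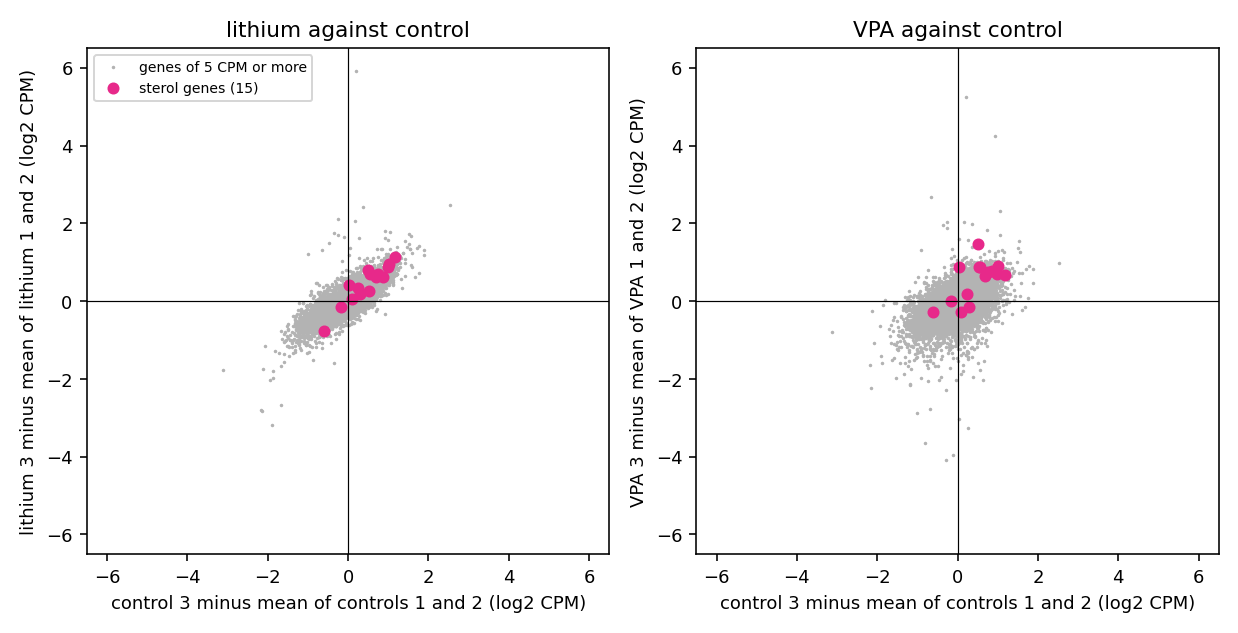
Difference of library 3 from the mean of libraries 1 and 2 (log2 of CPM + 0.5) in lithium (left) and VPA (right) on the y axis against control on the x axis, for genes of 5 CPM or more (grey) and the 15 sterol genes tested (pink). The cloud is narrower for lithium (r = 0.804) than for VPA (r = 0.526), and most sterol genes lie to the upper right.

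The measure was also read in the group that did not take part in choosing the genes. The choosing fits kept all 12719 genes. Of 160 genes called in control and VPA, 160 differed in the same direction in lithium, as against 77.3% of all genes, and in 158 (98.8%, against 56.3%) lithium 3 lay outside both other lithium libraries on that side. Of 97 genes called in control and lithium, 92 (94.8%, against 69%) had the same direction in VPA, and in 86 (88.7%, against 56.1%) VPA 3 lay outside both. Lithium and VPA called only 2 genes, both of which were higher in control 3. The number itself had been picked with all groups in view, so these shares describe the groups and are no test.

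Whether the number 3 difference varied with the drug was tested as an interaction, the contrast between the groups' differences rather than their average. Number 3 was chosen with all groups in view, so a low count here is no independent support for a shared difference. edgeR called 0 of 12719 genes, with 211 at an unadjusted p under 0.05 and a smallest adjusted p of 0.177, and DESeq2 called 19. If no gene differed, a share of 0.05 would pass in a calibrated test. The 211 are a smaller share, so they are no excess over that level. The fit had 3 residual degrees of freedom, and a gene that missed the threshold is not shown to differ alike in all groups. The named gene with the smallest p was Slc6a9, a glycine transporter, at 68.2, 59.9 and 101 CPM in control, 58.8, 71 and 60.1 CPM with lithium and 43.2, 40.4 and 14 CPM with VPA (edgeR, adjusted p = 0.832). Number 3 was the highest of the controls and the lowest of the VPA libraries. Calhm2, a channel subunit, and Prx, a scaffold protein of myelinating Schwann cells, followed the same order: Calhm2 stood at 68.2, 64.5 and 109 CPM in control, 80.1, 73 and 102 CPM with lithium and 30.8, 37.5 and 21 CPM with VPA, and Prx at 32.1, 30.6 and 52.6 CPM in control, 34.3, 49 and 47 CPM with lithium and 23.9, 17.1 and 8.84 CPM with VPA. Hist1h1c, a linker histone whose family shares sequence, stood at 149, 184 and 116 CPM in control, 169.7, 174 and 93.2 CPM with lithium and 78.2, 66.3 and 101 CPM with VPA, with number 3 lowest in control and lithium and highest with VPA. Epha5, an ephrin receptor, held 1 count in control 3 against 22 and 12 in controls 1 and 2, and number 3 lay within or above the others elsewhere.

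The same fit with the number as 3 levels was used to compare number 2 with number 1. edgeR called 0 genes, with 202 (1.59%) at an unadjusted p under 0.05, a share below that 0.05, and DESeq2 called 6. This count does not single out number 3. The difference of number 2 from number 1 in lithium correlated at -0.627 with that in control and at -0.346 with that in VPA. The part of this in the count was not tested. In control and VPA alone, a choice made after seeing the data, 2263 genes (17.8%) had an unadjusted p under 0.05 for number 2 against 1 and 6 were called, while number 3 gave 4127 genes (32.4%) and 1561 calls. In lithium and VPA alone the fit called 12 genes for number 2 against 1 and 29 for number 3, and in control and lithium alone 0 and 0, although 1870 and 2391 genes there had an unadjusted p under 0.05 for number 3, against 77 and 126 for number 2 against 1. Over all 3 groups this fit called 1299 genes for number 3.

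The number bore on the drug comparisons, which ask what each drug altered. VPA against control called 1106 genes (8.7%), 726 higher and 380 lower, without a number term, and 2072 (16.3%), 1228 and 844, with the number 3 term, among them all 1106. With the number as a replicate block of 3 levels it called 1741. Because number 3 was picked on these libraries, the p-values with its term are not independent evidence. Lithium against control called 0 genes with edgeR in all of these fits and 0 with DESeq2. In edgeR 116 genes had an unadjusted p under 0.05 without the term and 245 with it. Both counts are below a share of 0.05 of the genes tested.

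Named genes carry a symbol because the authors listed them by p-value in the drug comparisons, so a high share of calls for VPA among them was set beforehand, and only the change between the fits is described here, beside 8.7 and 16.3% of all genes. The lists were also chosen with number 3 differences known, which favours a gain in calls once that term is fitted. Without the term 5 of the 9 synthesis genes were called higher with VPA, and with it 9 were, while sterol sensing, uptake and export went from 3 higher and 1 lower to 5 and 1. For Fdft1 the log2 change with VPA was 1.01 ± 0.30 (SE, adjusted p = 0.0618) without the term and 1.02 ± 0.12 (SE, adjusted p = 0.000431) with it, both from edgeR. Control 3, at 186 CPM, lay near VPA 1 and 2, at 209 and 214 CPM, so the groups nearly met. For Cyp51 the values were 1.01 ± 0.39 (SE, adjusted p = 0.139) and 1.09 ± 0.15 (SE, adjusted p = 0.000828) in edgeR, and control 3 there reached 166 CPM against 162 CPM in VPA 1, so the groups overlapped. Insig1 was called either way, at 2.13 ± 0.40 (SE, adjusted p = 0.00752) and 1.99 ± 0.21 (SE, adjusted p = 0.000254) in edgeR, and its groups did not overlap.

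Among matrix genes, preselected in the same way, 13 of 19 were called lower with VPA without the term and 16 with it, and 0 higher, again beside 8.7 and 16.3% of all genes. Col5a2 changed by -1.15 ± 0.37 (SE, adjusted p = 0.0812) without the term and by -1.22 ± 0.17 (SE, adjusted p = 0.00107) with it in edgeR; control 3, at 361 CPM, stood only a little above VPA 1 and 2. Col3a1, which was not called for number 3, changed by -2.97 ± 0.37 (SE, adjusted p = 0.00103) and -2.97 ± 0.31 (SE, adjusted p = 0.000231) in edgeR. Syn1 changed by 1.51 ± 0.52 (SE, adjusted p = 0.1) and 1.61 ± 0.22 (SE, adjusted p = 0.000983) in edgeR, and control 3 and lithium 3 lay just below VPA 1. Map1a, which differed by number 3 in every group, was not called for VPA in either fit of edgeR, at 0.11 ± 0.42 (SE, adjusted p = 0.918) and 0.16 ± 0.23 (SE, adjusted p = 0.7). The fold changes with VPA moved little between the fits in these genes, and their standard errors fell. Every group holds every number once, so the number 3 term could hardly move a fold change. Most of these genes were named for their number 3 difference, so a term for it was bound to lower their standard errors. The pattern thus follows from the design and the choice of genes, and it is no separate result.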

How the data were processed

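The authors deposited raw counts per Ensembl gene for 9 libraries, whole numbers with library totals of 9580591 to 13030300, used as deposited. The submitters' processing notes name STAR 2.5.1, Salmon 0.6.1, kallisto 0.42.4, sleuth, Cufflinks 2.2.1, CASAVA 1.8 and DESeq2, with no role for any of them. The genome build is not given in the sources used here, nor is the annotation. The authors' tables of log2 fold changes with p-values and q-values, per the file headers, served only to pair identifiers with names (1384 identifiers, 1310 of them symbols).

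Counts were fitted with edgeR 4.0.16 (R 4.3.3) after TMM scaling and a filterByExpr filter at a minimum count of 10, in a robust quasi-likelihood fit with group and a number 3 term over all 9 libraries (5 residual degrees of freedom) and Benjamini-Hochberg adjustment over 12719 genes. Standard errors were the log2 difference divided by the root of its F statistic. Drug comparisons used group means without a number term (6 residual degrees of freedom), two-sided. CPM used TMM-scaled library sizes. The p-values reflect the spread of these libraries alone, which may be technical. The number, the gene lists and the rules were chosen with earlier results of these data known.

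Named genes are those that had a symbol, averaged at least 1 CPM, were called and had number 3 outside both other libraries on the same side in all groups (the 12 largest differences each way), the 4 members with the smallest p of each described list at most, 5 genes by the interaction's p, 2 identifiers without a name each way and 6 fixed genes; further list members are named to complete the list described and were chosen after their values were seen. Alternatives were DESeq2 1.42.0, other scalings and filters, a non-robust fit, the number as a replicate block, single groups left out and each library left out. Some genes that this rule takes are counted in their lists but not reported here by name.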

Additional observations from a re-analysis of the deposited data

Results flagged for a closer look

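The difference of number 2 from number 1 varied with the drug group in 1 of 12719 genes, a test added after seeing the data: ENSRNOG00000051891, which has no name in the tables, passed the interaction test of edgeR at an adjusted p of 0.0415. It stood at 0.0907, 21.8 and 0.267 CPM in control libraries 1, 2 and 3, at 3.1, 0.351 and 0.539 CPM with lithium and at 0.546, 1.29 and 0.241 CPM with VPA. Control 2 was by far the highest library, and lithium 1 and VPA 2 were the highest of their groups at lower levels. The fit had 2 residual degrees of freedom, and 627 genes had an unadjusted p under 0.05. That is close to a share of 0.05 of the 12719 genes, which would pass in a calibrated test if no gene varied.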

How the results depend on the processing

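With 875 genes higher and 1054 lower in the libraries numbered 3, the number as a replicate block of 3 levels gave 572 higher. Lithium and VPA alone gave 2 higher and 0 lower, control and VPA alone 53 and 103, and control and lithium alone 72 and 101, with the count filter applied to those groups; over the 12719 genes of the full filter the last 2 of these pairs gave 160 and 97 calls in all. With the 3-level replicate block, which takes the difference between numbers 1 and 2 out of the residual spread, control and VPA alone gave 696 and 852 (an alternative added after seeing the data; 1561 calls over the 12719 genes). Leaving out 1 library or 1 number gave 2 to 1023 higher and 0 to 1119 lower. Under 23 alternatives the differences of the 48 called named genes changed sign 0 times, and those of the 71 not called did so 58 times, in 19 genes. The share of higher calls ran within 10 percentage points over all scalings and filters. The interaction with the drug gave 21 genes without a filter and 19 with DESeq2 against 0. Number 2 against number 1 gave 6 genes with DESeq2, 12 in lithium and VPA alone and 6 in control and VPA alone, against 0, and 0 to 14 without 1 library. VPA against control called 1741 genes with the replicate block and 2072 with the number 3 term, against 1106, and 75 to 529 without 1 number. The cause of these moves was not tested; fewer libraries also mean fewer degrees of freedom. The labels state no pairing, and same-numbered libraries 1 and 2 of lithium did not deviate with those of control (r of -0.42 and -0.0808), so the block is given as an alternative only. Counts of low genes limit Dcn, Wisp2, Lum, Nrgn, Klk6, Tubb4a and Fbxl16, where 1 count is worth 0.077 to 0.109 CPM.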
